A study of Mus musculus with 6 samples.

Results

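The genes that encode the proteins of the cytosolic ribosome were examined in liver RNAseq of *Txndc5*-deficient (KO) and wild type (WT) male mice. They were chosen by symbol, as Rpl or Rps followed by a number with the optional endings a, l, x or al, together with *Rplp0*, *Rplp1*, *Rplp2* and *Rpsa*. Pseudogene symbols with -ps and the Rps6 kinase genes were left out. The rule uses no expression value, but it was set with earlier results of these data known. The rule found 82 of the 16123 genes of the deposited table, 32 of the small ribosomal subunit and the others of the large. WT mice were labelled C57BL/6Rj and KO mice C57BL/6JRj-Txndc5<em2Mdnp>/Ciba. The KO line came from 1 founder in which exon 3 of *Txndc5* had been removed with Cas9 in zygotes, so that every tissue lacks it. The strain in the design text differs from that in the labels. The paper describes the males of both genotypes as offspring of heterozygous crosses, so the labels need not mean separate backgrounds. Mice of both groups were 2 months old when a purified diet began, ate it for 4 weeks and were fasted for 16 h before sacrifice. Each of the 3 libraries per genotype held the pooled liver RNA of 3 mice.

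The ribosome joins a small subunit, which reads the mRNA, to a large subunit, which forms the peptide bond. Each ribosome holds a single copy of nearly all of its proteins, so that the cell makes them in matched amounts. Their mRNAs carry a 5′ terminal oligopyrimidine (TOP) tract, a run of C and T bases at the transcription start, through which mTORC1 and the RNA-binding protein LARP1 control their translation. In liver, fasting lowers mTORC1 activity and with it the translation of these mRNAs.

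To show this feature, the 30 bases around annotated starts were read from the RefSeq promoter table on GRCm38.p6 for genes at both ends of the order of KO/WT ratios given further on. Each sequence runs 5′ to 3′ on the strand of the gene, with 15 bases before the start and 15 from it on. Capitals mark the longest run of C or T bases where it held at least 8 and touched the 5 bases on either side of the start. The first 7 sequences have such a run, which in *Rps27l* ends before the annotated start, and the last 4 have none.
*Rpl38* (chr11:114668565-114668594, plus strand): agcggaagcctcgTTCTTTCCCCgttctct
*Rps24* (chr14:24490663-24490692, plus strand): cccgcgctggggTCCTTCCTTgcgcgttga
*Rps15a* (chr7:118116133-118116162, minus strand): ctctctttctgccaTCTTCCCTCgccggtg
*Rpl7a* (chr2:26910792-26910821, plus strand): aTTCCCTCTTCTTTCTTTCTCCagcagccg
*Rplp2* (chr7:141447636-141447665, plus strand): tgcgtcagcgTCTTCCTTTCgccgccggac
*Rps6* (chr4:86857353-86857382, minus strand): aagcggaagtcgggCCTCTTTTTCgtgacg
*Rps27l* (chr9:66946071-66946100, plus strand): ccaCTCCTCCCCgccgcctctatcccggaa
*Rpl23* (chr11:97782425-97782454, minus strand): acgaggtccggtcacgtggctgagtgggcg
*Rpl26* (chr11:68901551-68901580, plus strand): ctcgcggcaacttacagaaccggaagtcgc
*Rpl5* (chr5:107900513-107900542, plus strand): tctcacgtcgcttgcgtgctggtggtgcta
*Rps4x* (chrX:102189377-102189406, minus strand): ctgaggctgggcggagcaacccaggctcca

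The RefSeq table held a start for 61 of the 82 genes (74.4%), which is below the 80% needed for a check over the whole set, so the shares from it are void as a statement on all members. Of those 61, 24 (39.3%) had a tract of at least 8 bases that reached within 5 bases of the start. The share was 10.96% of all genes of the table. The tract ended before the annotated start in *Rps27l*, *Rpl4* and *Rpl19* and began after it in *Rps26*, *Rpl13a* and *Rpl18*. *Rps24*, *Rps27l*, *Rpl19*, *Rpl34* and *Rpl35a* had the tract at only 1 of their several listed starts. The GENCODE M21 coding transcripts covered 80 of the 82 genes. In these, a run of at least 8 pyrimidines that began within the first 6 bases of a transcript was found in 21 genes (26.3%), against 6.94% of the genes whose mean value reached 10. A gene without a match may start a few bases away from the annotated position. Genes with the tract had a median log2 ratio of −0.24 (n = 23) and genes without it −0.28 (n = 35), with ranges of −0.55 to 0.06 and −0.76 to −0.03 that overlapped widely. In the 250 bases before to 50 bases after the start, on both strands, the letters CCGGAAG, the core bound by ETS factors, were present in 25 of the 61 genes (41.0%) and in 9.93% of all genes. The letters AAGATGG, the core of the YY1 site, were found in 14.8% and 7.28%, and TATAAA in 11.5% and 15.7%.

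The deposited table gives 1 value per genotype for each gene, on the scale of reads divided by size factors. The average of both values is that of the 6 libraries, but the values are not the mean reads of each genotype. *Rpl39l*, for example, is listed at 0.36 in KO, where 0 reads were recovered. They appear to have been built from a shrunken ratio of the authors' comparison, so the ratios below are not independent of that comparison and can understate the difference in reads. The spread of a gene between pools was not available, and no test of a single member was possible except for the 3 weakest. In the KO value *Txndc5* was at 90.8, against 2697 in WT. Albumin (*Alb*), the main hepatocyte product, was at 1329546 in WT and 1332576 in KO. The libraries held from 44040160 to 46050030 clean reads, and uniquely mapped reads made up between 62.19% and 65.69% of them. Ribosomal RNA made up from 0.26% to 0.40% of the reads in KO and from 0.34% to 0.69% in WT (exact permutation test, two-sided, p = 0.3, where 3 pools against 3 cannot go below 0.1). In bulk liver RNA, fewer cells of a type and less RNA per cell cannot be told apart.

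The ribosomal protein mRNAs were abundant. The values of 79 genes had a mean over both genotypes of at least 10, and the lowest of these, *Rps27l*, was at 545. Summed over all members, the values were 361614 in WT and 303609 in KO, which was 1.83% and 1.64% of the sum over all genes.

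Levels can be compared between genes only per length, here as the WT value per kilobase of the median coding transcript in GENCODE M21. On this scale *Rps2*, which lines the mRNA entry of the small subunit, had the highest level at 22752, and among the next were *Rpl41*, the smallest ribosomal protein, at 18926, *Rplp0*, the base of the stalk, at 18616 and *Rps15* at 18094. Next in the small subunit came *Rps14* at 13166, *Rps27* at 10104 and *Rpsa*, also known as the laminin receptor, at 9064, and next in the large subunit *Rpl13a* at 17031 and *Rplp1* at 14249. The lowest levels per kilobase were 478 for *Rpl22* and 718 for *Rps20*. The 78 genes with a coding length spanned a 47.6-fold range of this level, although the quartiles, 2934 and 8688, were only 2.96-fold apart. With a single value per genotype, it cannot be said which neighbours in this order differ beyond their spread. The order also depends on the length chosen. With the longest coding transcript *Rps15a* became the lowest gene and the range 131-fold. *Rps20* is annotated with a single coding transcript of 3706 bases, far longer than its protein needs.

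**Figure D1:**
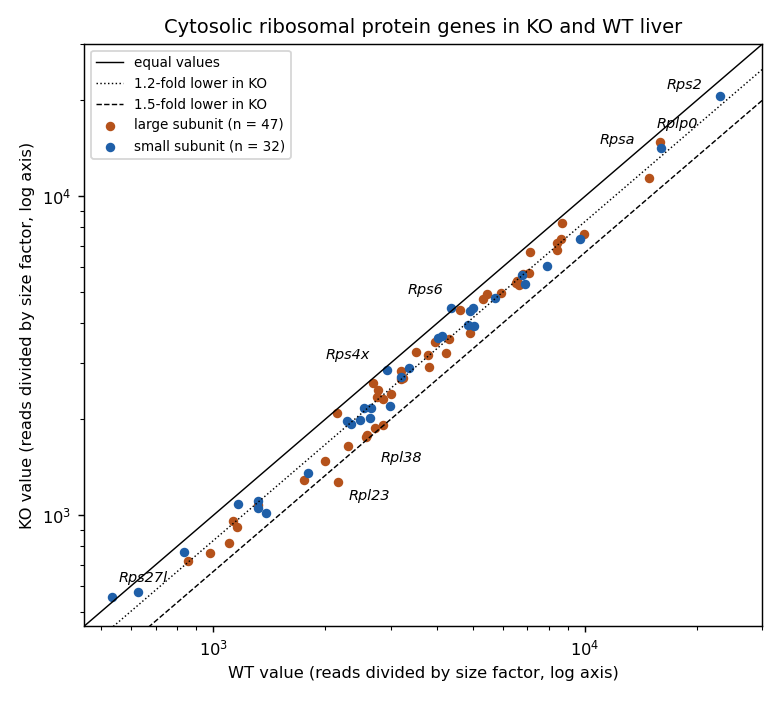
Values of the 79 ribosomal protein genes with a mean of at least 10 in WT (x axis) and KO liver (y axis), in reads divided by size factors on log axes, with lines for equal values and for KO values 1.2-fold and 1.5-fold lower. Nearly all points lie below the line of equal values and *Rpl23* alone lies below the 1.5-fold line.

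The comparison of KO with WT asks whether the loss of TXNDC5, a protein disulfide isomerase of the endoplasmic reticulum, goes along with other levels of these mRNAs. The ribosomal protein mRNAs were lower in KO nearly without exception. Of the 79 genes, 77 had a lower value in KO, against 57.7% of the 11367 genes whose mean value reached 10. The differences were small. The median log2 ratio of KO over WT was −0.26 (quartiles −0.37 and −0.17), a 1.197-fold lower value, and the median of all 11367 genes was −0.05. KO values were lower by at least 1.2-fold in 39 of the 79 genes (49.4%), against 21.1% of all genes, and higher by as much in 0, against 11.7%. A 1.5-fold lower value was reached by *Rpl23* only, against 5.79% of all genes. The 1.2-fold limit runs through the densest part of the order, with *Rpl15* (log2 ratio −0.27) and *Rpl11* (−0.27) just past it and *Rps16* (−0.26) and *Rpl32* (−0.26) just short of it. Of the 2999 genes whose mean value reached 500, as it did in all 79, 11.4% were lower by 1.2-fold.

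**Figure D2:**
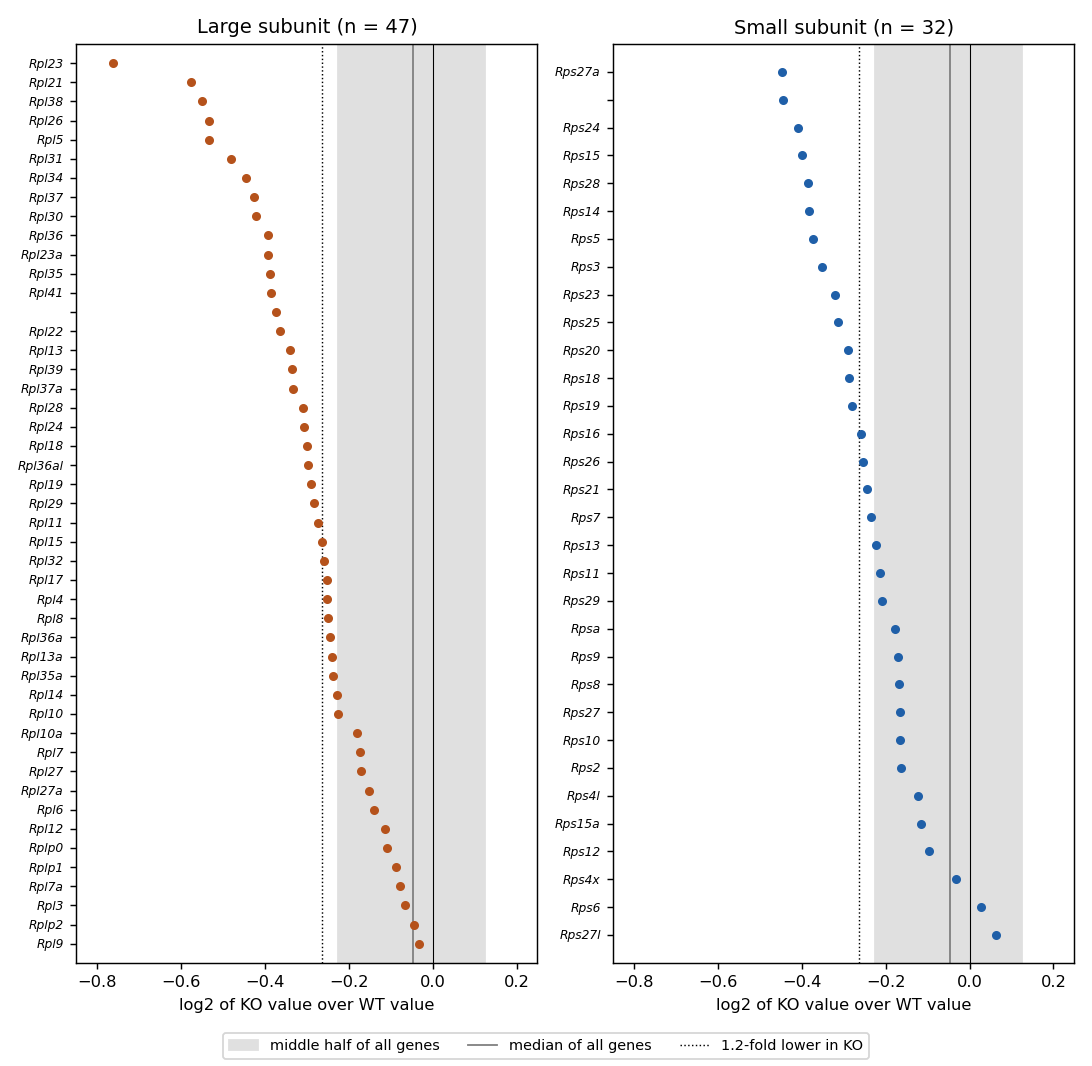
Log2 of the KO value over the WT value for each of the 47 large subunit genes (left) and 32 small subunit genes (right) whose mean value reached 10, 1 point per gene, in order, with some genes left without a name. The grey band covers the quartiles of all 11367 genes, the grey line their median of −0.05 and the dotted line a 1.2-fold lower value. Only *Rps6* and *Rps27l* lie to the right of 0.

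Short genes were lower in KO whether or not they belong to the ribosome. Most ribosomal protein genes are short, with a median length of 708 bases in the deposited table against 2791 for all genes. Of the 281 other genes whose mean value reached 500 and whose length was up to 1000 bases, 254 were lower in KO, and their median log2 ratio was −0.19. The 60 ribosomal protein genes of that length had a median of −0.27. Of these 60 genes 59 were lower in KO and 30 were lower by 1.2-fold, against 91.8% and 34% of all 341 genes of that level and length, members included. The 2639 other genes of that level and over 1000 bases had a median of 0.00, and 8.22% were lower by 1.2-fold. The 19 ribosomal protein genes over 1000 bases had a median of −0.25, with 9 of them lower by 1.2-fold. Across the 2920 other genes of that level, Spearman's rho between length and ratio was 0.41, and across the 79 ribosomal protein genes it was 0.14. These correlations are across genes of the same libraries and are given without a test. The part of length in the lower ratios was not tested.

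**Figure D3:**
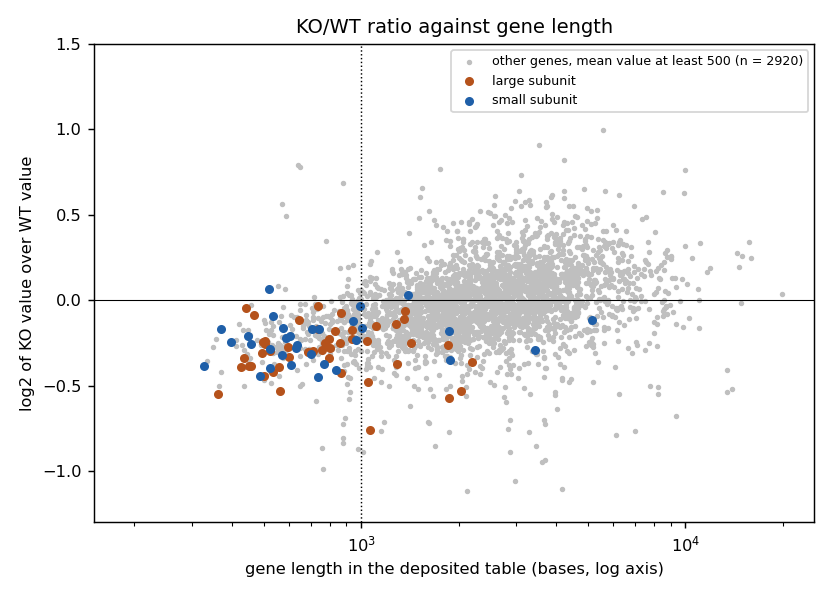
Log2 of the KO value over the WT value (y axis) against gene length in the deposited table (x axis, log scale) for the ribosomal protein genes of both subunits and the 2920 other genes whose mean value reached 500, of which 3 fall outside the y axis. The dotted line marks 1000 bases, to the left of which the grey points lie mostly below 0.

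The ratio varied little with GC content or level among the ribosomal protein genes. Spearman's rho of the ratio was 0.03 with GC content and 0.17 with the mean value across the 79 genes, and 0.22 and 0.10 across all genes tested. In each GC tertile of all genes, the members had a median between −0.28 and −0.25, while the medians of all genes were −0.16, 0.04 and −0.04 from low to high GC.

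In the large subunit all 47 genes above the minimum level were lower in KO, against 57.7% of all genes. Their median log2 ratio was −0.28, and 26 (55.3%) were lower by 1.2-fold, against 21.1%. Among the 341 short and abundant genes, 91.8% were lower in KO and 34% were lower by 1.2-fold. *Rpl23*, a protein of the interface with the small subunit (NCBI Gene 65019, chr11:97777527-97782437 on the minus strand of GRCm38), went from 2164 in WT to 1276 in KO, a log2 ratio of −0.76. *Rpl21* was at 2861 and 1920 (−0.58) and *Rpl38*, known for its part in the translation of Hox mRNAs, at 2578 and 1760 (−0.55). *Rpl26* and *Rpl5*, which binds the ribosomal 5S RNA, had ratios of −0.53 each, from 2586 to 1788 and from 2721 to 1881. At the other end, *Rpl9* was at 2149 in WT and 2101 in KO (−0.03), *Rplp2* at 2685 and 2604 (−0.04) and *Rpl3*, which lies next to the peptidyl transferase centre, at 4604 and 4400 (−0.07). *Rpl7a* had a ratio of −0.08 and *Rplp1* of −0.09.

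In the small subunit 30 of 32 genes (93.8%) were lower in KO, against 57.7% of all genes. The median log2 ratio was −0.24, and 13 (40.6%) were lower by 1.2-fold, against 21.1%. Among the 341 short and abundant genes these shares were 91.8% and 34%. *Rps27a*, which is made as a fusion with ubiquitin, was at 1384 in WT and 1014 in KO (−0.45). *Rps24* was at 1799 and 1355 (−0.41), *Rps15* at 9698 and 7354 (−0.40) and *Rps28* at 2644 and 2025 (−0.39). The exceptions were *Rps6*, the substrate of S6 kinase, at 4370 in WT and 4454 in KO (0.03), and *Rps27l*, a p53-inducible copy of *Rps27*, at 533 and 557 (0.06). *Rps4x* at 2928 and 2863 (−0.03), *Rps12* (−0.10) and *Rps15a* (−0.12) were the next highest. *Rps6* lies on the minus strand at chr4:86854660-86857412 and carries the tract shown above. No such tract was found at the annotated start of *Rps4x*.

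Grouped by role, the members differed in how far below WT they lay. These lists were drawn up with earlier results of these data known and hold few genes, so their medians and counts are descriptions. For comparison, 49.4% of the 79 members, 21.1% of all genes and 34% of the 341 short and abundant genes were lower by 1.2-fold. The acidic stalk, which recruits the elongation factors, was near the median of all genes, with log2 ratios of −0.11 for *Rplp0*, −0.09 for *Rplp1* and −0.04 for *Rplp2* and 0 of 3 past 1.2-fold. The 8 proteins around the exit tunnel, through which the nascent chain leaves the ribosome, were all lower, with a median of −0.35 and 6 past 1.2-fold. They ran from *Rpl31* (−0.48), *Rpl23a* (−0.39) and *Rpl35* (−0.39) through *Rpl22*, *Rpl39* and *Rpl19* to *Rpl17* (−0.25) and *Rpl4* (−0.25). *Rpl23a* and *Rpl35* form the docking site of the signal recognition particle at the tunnel exit. The 6 proteins known to bind Mdm2 or the p53 mRNA when they are not in ribosomes had a median of −0.46, with 5 past 1.2-fold. They were *Rpl23*, *Rpl26*, *Rpl5*, *Rps14* (−0.38), *Rpl11* (−0.27) and *Rps7* (−0.24), and the first 3 of them are also among the 5 lowest genes of the large subunit. The 8 proteins of the small subunit head, mRNA channel and initiation contacts had a median of −0.22, with *Rps28*, *Rps3* (−0.35) and *Rps20* (−0.29) past 1.2-fold and *Rps26*, *Rpsa*, *Rps10*, *Rps2* (−0.16) and *Rps6* not.

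**Figure D4:**
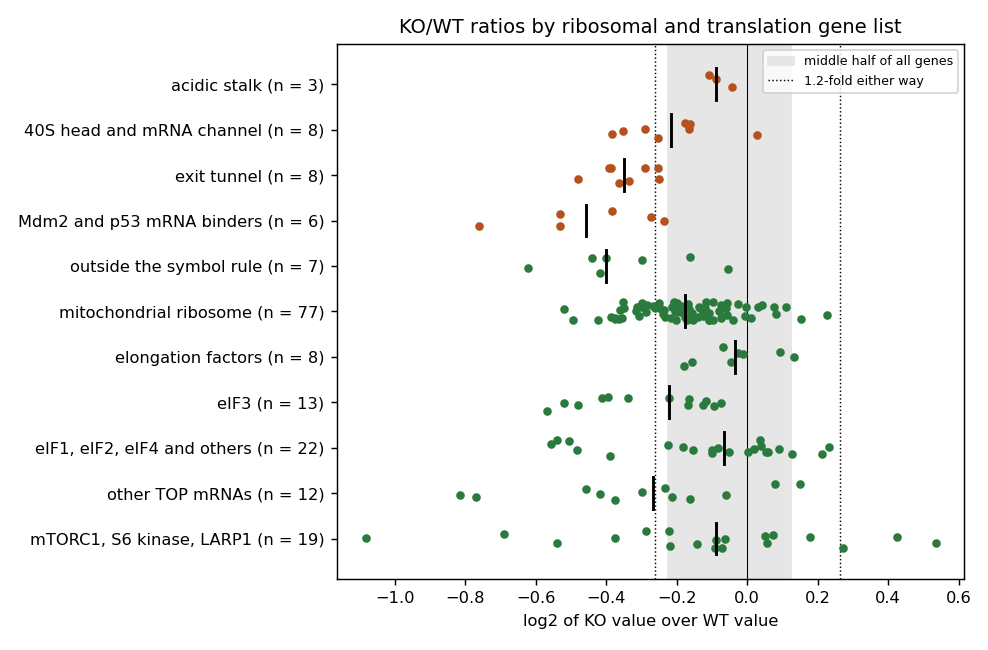
Log2 of the KO value over the WT value for the genes of each list whose mean value reached 10, 1 point per gene (orange for members, green for other genes) with the median as a black bar. The grey band covers the quartiles of all genes and the dotted lines mark 1.2-fold either way. The stalk lies within the band, as do 7 of the 8 genes of the elongation factor list, and the exit tunnel lies to its left. *Eef2k* (0.13), the kinase of eEF2, lies just past the upper edge of the band.

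Some members are copies of others. *Rpl36al*, which encodes nearly the same protein as *Rpl36a*, was at 1746 per kilobase of the median coding transcript in WT, against 1771 for *Rpl36a*, and their log2 ratios were −0.30 and −0.24. With the longest coding transcript the levels were 1036 and 1771. *Rps27* was at 10104 and *Rps27l* at 1068 per kilobase of the median coding transcript, with ratios of −0.17 and 0.06. *Rps4l*, which has a length in the deposited table alone, was at 666 per kilobase of that length, against 2951 for *Rps4x*, with ratios of −0.12 and −0.03. The transcripts of these copies are not all alike. GC content was 53.6% for *Rps27* and 41.9% for *Rps27l*, and 45.4% for *Rps4x* and 60.2% for *Rps4l*. RSEM is among the tools named, but how reads were shared between copies is not given in the sources used here, so these pairs are uncertain.

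The 3 members below a mean value of 10 are copies of other members, and their reads per library could be recovered. The KO libraries are named KO a, b and c here and the WT libraries WT a, b and c, since their pool numbers are not known. *Rpl3l*, the copy of *Rpl3* made in heart and skeletal muscle, had 0, 1 and 2 reads in KO a, b and c and 0, 1 and 3 reads in WT a, b and c. *Rpl39l*, a copy of *Rpl39* made in testis, had 2 reads, both in WT b, and *Rpl32l* had 1 read, in WT a. The genotypes overlapped in each of the 3 genes (two-sided exact permutation test, p = 0.7 for *Rpl3l*, 1 for *Rpl39l* and 1 for *Rpl32l*, with n = 3 libraries per genotype). In limma over all 7752 genes with recovered reads, in which 0.0129% had an adjusted p under 0.05 and 2.84% an unadjusted p under 0.05, their adjusted p values were between 0.970 and 0.997. These genes were hardly detected at this depth, and a difference between the genotypes was not detectable.

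Several ribosomal proteins carry symbols outside the rule. *Fau*, the precursor of the small subunit protein eS30, went from 3252 in WT to 2642 in KO (−0.30) and *Rack1*, the scaffold on the small subunit head, from 7301 to 6517 (−0.16). *Rps3a1*, which was looked up after the values were seen, was at 2494 and 2033 (−0.30). The paralogues *Rpl22l1* (−0.40) and *Rpl7l1* (−0.05), and *Rsl24d1* (−0.44) and *Rsl1d1* (−0.62), which act in the assembly of the large subunit, were also on this list. All its 7 genes were lower in KO, against 57.7% of all genes. Past 1.2-fold were 5 of them (71.4%), against 21.1% of all genes.

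Of the 7 pseudogene copies with -ps symbols, 5 had a lower and 2 a higher deposited value in KO, and 5 had a mean below 10. *Rplp2-ps1* had 26.1 ± 10.7 normalized reads in KO and 30.04 ± 11.6 in WT (SD, n = 3 libraries each, exact permutation test, p = 0.6), and *Rps15a-ps4* had 18.9 ± 2.48 and 13.0 ± 5.51 (exact permutation test, p = 0.2). In the other 5, between 7 and 54 reads were found over the 6 libraries, and the genotypes overlapped in all 7. *Rpl37rt*, a retrotransposed copy of *Rpl37* that was picked after its values were seen, had 5, 0 and 8 reads in KO a, b and c and 19, 17 and 10 in WT a, b and c. Every WT library lay above every KO library after division by the size factor, which was also the case in 2.77% of the 3900 recovered genes with at least 30 normalized reads. Its log2 difference was −2.17 with a standard error of 0.742 (limma, adjusted p = 0.970), so it did not pass the test, and the exact permutation p was 0.1, the smallest possible. Without KO b, which held 0 reads, the difference was −1.24, and without the other libraries in turn it lay between −2.91 and −2.02. How reads were shared between these copies and their parent genes is not known, so their counts are uncertain. *Rpl37* was at 1995 in WT, against 13.5 for *Rpl37rt*.

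The mitochondrial ribosome is a separate machine whose proteins are also made in the cytosol. Its 77 genes had a median log2 ratio of −0.18, and 69 (89.6%) were lower in KO, against 57.7% of all genes. Of these genes 20 (26.0%) were lower by 1.2-fold, against 21.1% of all genes, and 0 were higher by as much, against 11.7%. They ran from *Mrpl1* (−0.52) and *Mrpl47* (−0.49) to *Mrps2* (0.15) and *Mrpl9* (0.23). In the plot of cumulative distributions they lie between the cytosolic ribosomal protein genes and all genes, close to the other short and abundant genes.

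**Figure D5:**
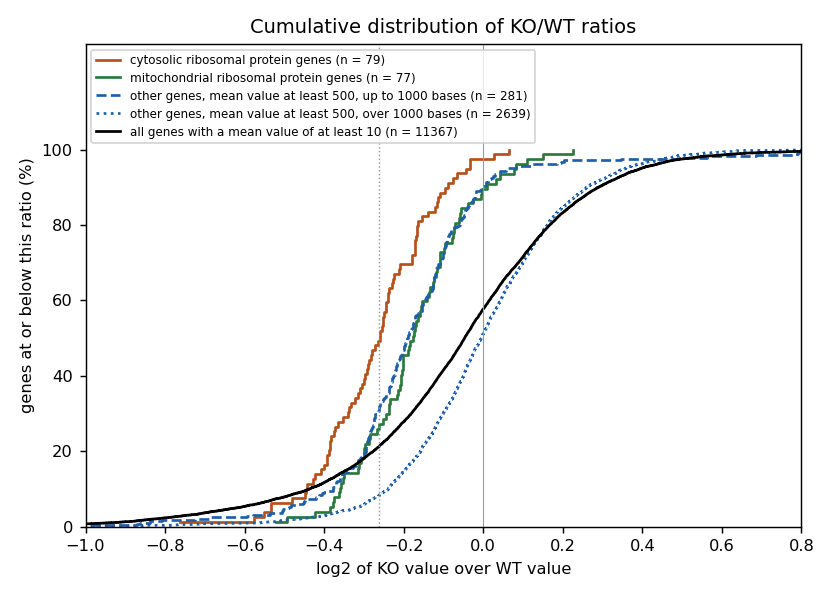
Share of genes (y axis, percent) at or below each log2 ratio of KO over WT (x axis) for the 79 cytosolic and 77 mitochondrial ribosomal protein genes, all 11367 genes, and the other genes whose mean value reached 500, divided at 1000 bases. The dotted line marks a 1.2-fold lower value, and the curve of the cytosolic genes is the leftmost over most of the range.

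Translation factors did not all lie as low as the ribosomal proteins. For comparison, 57.7% of all genes were lower in KO and 21.1% were lower by 1.2-fold. Of the 8 genes of the elongation factor list 0 passed 1.2-fold, with a median of −0.04. *Eef2*, the translocase, was at 59257 in WT and 53124 in KO (−0.16) and *Eef1e1* at −0.18. *Eef1a1*, which delivers the aminoacyl-tRNA and is itself a TOP mRNA, was at 61761 and 65901 (0.09). The list also holds *Eef2k*, the kinase of eEF2, at 0.13. The 13 subunits of initiation factor eIF3 were all lower in KO, with a median of −0.22 and 6 past 1.2-fold, from *Eif3j1* (−0.57) and *Eif3e* (−0.52) to *Eif3c* (−0.09) and *Eif3b* (−0.07). Among 22 other initiation factor genes, 5 (22.7%) were lower by 1.2-fold, close to the 21.1% of all genes, and the median was −0.07, from *Eif2s1* (−0.56) and *Eif5* (−0.54) to *Eif4b* (0.21) and *Eif4g1* (0.23).

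Other genes with TOP mRNAs were spread more widely. In this list of 12 genes, 3 of which are ribosomal protein genes outside the rule, the median was −0.27. By 1.2-fold 6 of them (50%) were lower, against 21.1% of all genes. Elongation factors with TOP mRNAs were kept on their own list, and with 5 of them (*Eef1a1*, *Eef1b2*, *Eef1d*, *Eef1g* and *Eef2*) added after the values were seen, the median of the 17 genes was −0.16. *Hnrnpa1* was at −0.77, whereas *Ybx1* (0.08) and *Pabpc1*, the poly(A)-binding protein (0.15), were higher in KO. *Gas5*, a host gene of small nucleolar RNAs with a TOP tract, had 54.9, 23.2 and 13.5 normalized reads in KO a, b and c and 111, 55.7 and 29.3 in WT a, b and c. The genotypes overlapped, and the log2 difference of −1.10 with a standard error of 0.524 did not pass (limma, adjusted p = 0.970, exact permutation p = 0.2). It was −0.62 without WT a, −0.65 without KO c and −1.62 without KO a. Among 19 genes of mTORC1 and its arms to these mRNAs, 5 were lower (26.3%) and 3 higher (15.8%) by 1.2-fold, against 21.1% and 11.7% of all genes, with a median of −0.09. *Larp4*, which binds and stabilises such mRNAs at the poly(A) tail, was at 217 in WT and 103 in KO (−1.08) and *Rps6kb1*, the S6 kinase, at 117 and 72.2 (−0.69). The mTORC1 inhibitor *Sesn2* (0.54) and the translation repressor *Eif4ebp2* (0.43) were the highest of this list, while their paralogues *Sesn3* (−0.37) and *Eif4ebp1* (−0.29) were lower in KO by 1.2-fold and *Sesn1* was at −0.09.

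Values of cell type markers in the same samples are given beside these ratios. Among all genes, 21.1% were lower and 11.7% higher in KO by 1.2-fold. All 6 red cell markers with a mean of at least 10 were higher in KO by 1.2-fold, and the 9 on the list summed to 118836 in WT and 180443 in KO, while *Hbb-b2* was at 0.14 and 0.13. Of 11 Kupffer cell and macrophage markers 3 were higher by 1.2-fold and their sum was 5783 in WT and 6446 in KO. The 9 lymphocyte markers summed to 112 and 86.4, but 6 of them had a mean below 10. Of the 9, 8 were lower in KO and *Cd3g* was higher, at 3.19 in WT and 4.78 in KO, while *Ms4a1* was at 0.85 and 0.83. Markers of hepatocytes had a median log2 ratio of −0.11 (1 of 8 lower by 1.2-fold), of sinusoidal endothelium −0.08 (1 of 8), of stellate cells −0.03 (2 lower and 2 higher of 8) and of cholangiocytes −0.02 (2 lower and 2 higher of 6). Their part in the ratios of the ribosomal protein genes was not tested.

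The spread between libraries could be seen only in weakly expressed genes. In the 1104 recovered genes with 200 to 400 normalized reads over the 6 libraries, the median SD within a genotype was 0.58 on the log2 scale, which gives a difference between genotypes a standard error of 0.47. Most ratios of the ribosomal protein genes were smaller than that, and their own spread, at far higher read numbers, is not known. In the same genes the ratio of the deposited values was 0.740 times the ratio of the recovered reads, so that the deposited values lay closer to each other than the reads did.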

How the data were processed

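Liver RNAseq of 3 WT and 3 KO pools was analysed. Per the labels, reads were mapped to mm10, and HISAT2, Bowtie2 and RSEM are among the tools named, without versions. For each gene the authors deposited 1 signal per genotype, in units of reads scaled by DESeq2 size factors, and a length. The log2 ratios, p-values and direction calls that the authors deposited from their DESeq2 comparison were not used. Log2 ratios (KO over WT) were calculated from the deposited signals. These appear to be built from the shrunken ratio of the authors' comparison, so the ratios carry the same information and are no independent estimate. The read counts and percent values per library were deposited by the authors as the sequencing service reported them.

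Members with a mean signal of at least 10 were compared with all 11367 such genes, at limits of 1.2 and 1.5-fold. At 1.1-fold the members alone were counted. With 1 value per genotype, the planned comparison is a description. The mean of both signals is the mean over 6 libraries of reads divided by size factors. Since reads are whole numbers, the reads per library of 7752 of 8081 genes (95.9%) with up to 400 normalized reads were recovered by enumeration, with the genotype of each library taken from genes with a single read. They were compared by limma 3.58.1 on log2(normalized reads + 1), with a trend and robust variances, and by two-sided exact permutation tests. The calculations were tested on simulated data. Whether the pools share litters is not stated, so these p-values measure the spread between pools. Positions, lengths and GC content came from GENCODE M21 (GRCm38). Genes named were the 5 highest and 5 lowest ratios and the 5 highest levels per length in each subunit, the members of the role lists, and up to 4 genes of each other list, and some of these are not reported here. The members and lists were chosen with earlier results of these data known.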

Additional observations from a re-analysis of the deposited data

How the results depend on the processing

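The median log2 ratio of the ribosomal protein genes, and those of each subunit, stayed negative and moved by at most 0.05 with pseudocounts of 1 and 0.1, without the minimum level and after centring on the median of all genes (−0.21 for all members). The median of all members, but not those of the subunits, was also taken with ribosomal proteins outside the symbol rule added, without duplicate copies and in genes up to 1000 bases, and moved by less than 0.05. The number of genes lower in KO was 66 at 1.1-fold, 39 at 1.2-fold, 28 at 1.2-fold after centring and 1 at 1.5-fold, and 0 genes were higher under each of these settings. Of all genes, 21.1% were lower and 11.7% higher at 1.2-fold, and 5.79% were lower at 1.5-fold. The shares of all genes at 1.1-fold and after centring were not taken, so 66 and 28 stand without a background. The range of WT levels per length was 47.6-fold with the median coding length, 131-fold with the longest and 142-fold with the length of the deposited table. A pyrimidine tract was found at or near the start of 39.3% of the genes in RefSeq, of 52.5% with at least 6 bases, of 29.5% with at least 10, and of 26.3% in GENCODE transcripts. Leaving out each recovered library, or a pseudocount of 0.5, brought none of the 3 weak members past limma's threshold, and the log2 difference of *Rpl3l* ran from −0.77 to 0.35 when single libraries were left out. The abundant and short genes as background, the GENCODE starts, *Rps3a1*, the elongation factors added to the other TOP mRNAs, the length of the deposited table and the pseudogene copies were chosen after seeing the data. No paired analysis was possible because the WT pools 1, 2 and 5 and the KO pools 2, 3 and 4 share a single number, and the members have 1 value per genotype. Depth limits the 3 weak members, and the lack of values per library limits all others.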
